A study of Mus musculus with 70 samples.

Results

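The genes described here are 30 members of the sterol and fatty acid synthesis pathways, taken by symbol from a table of 35197 genes, and all 30 were present in the table and passed the filter on low counts that left 16147 genes for testing. The data are 70 RNA sequencing libraries of mouse tumour lines, 8 in number, cultured without cytokine (NS) or for 48 h with interferon beta (IFNb, 1000 activity units/mL) or interferon gamma (IFNg, 100 ng/mL), all in DMEM with 10% fetal bovine serum. By their labels, Renca is a renal cancer, LLC a lung cancer, Panc02.3 and KPC.2 are pancreatic, MC38.7 and CT26.2 colorectal, and YUMMER1.7 and B16.1 melanoma, with BALB/c as the strain of CT26.2 and Renca and C57BL/6 as that of the other 6. Of the 24 groups of line and treatment, 22 held 3 libraries, while LLC with IFNg and Renca without cytokine held 2.

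Cells make cholesterol from acetyl-CoA through mevalonate, farnesyl diphosphate and squalene, and make fatty acids from acetyl-CoA and malonyl-CoA, with later steps that lengthen the chain and add a double bond. Both pathways are controlled by SREBP transcription factors, encoded by Srebf1 and Srebf2, which are held at the endoplasmic reticulum when sterols are plentiful and carried to the Golgi and cut when they are scarce. INSIG proteins hold back this transport, and Insig1 is itself an SREBP target. Serum lipoproteins supply cholesterol to cultured cells, so the serum present in every group is part of the setting of these measurements. Interferons are known to lower sterol synthesis in macrophages. By role the members are 4 regulators (Srebf1, Srebf2, Insig1, Insig2), a sterol branch of 18 enzymes, the sterol carrier Stard4, and a fatty acid branch of 7 enzymes. Of the 18, 7 act from acetyl-CoA to farnesyl diphosphate and 11 from the making of squalene (Fdft1) to cholesterol.

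The libraries held between 668355 and 28550816 estimated counts, with a median of 8644887, and the shallowest was replicate 3 of KPC.2 with IFNb. The deposited labels were checked on marker genes. The libraries labelled YUMMER1.7 had a summed level of 7 melanocyte markers of 18.7 to 25.5 CPM (counts scaled to library size) without cytokine, with Mlana and Tyrp1 at 0, against 19998 to 20390 CPM in B16.1. Lung markers in LLC and colorectal markers in CT26.2 and MC38.7 were at or near 0, whereas ductal markers in both pancreatic lines and tubule markers in Renca were present. The colorectal markers, however, summed to 514 to 584 CPM in KPC.2 NS and 147 to 158 CPM in Panc02.3 NS. Ductal markers summed to 2789 to 2986 CPM in KPC.2 NS and 632 to 820 CPM in Panc02.3 NS. They were also present in MC38.7 NS (138 to 141 CPM) and YUMMER1.7 NS (143 to 157 CPM). Interferon genes did not rise with IFNb in YUMMER1.7, where Gbp2 and Ifit1 fell, and IFNg raised Irf1 in all 8 lines. Without cytokine, the summed level of the 5 interferon genes was already 2322 to 2716 CPM in YUMMER1.7 and 649 to 772 CPM in CT26.2. It was 360 to 390 CPM in Renca, 203 to 247 CPM in Panc02.3 and 47.0 to 95.0 CPM in B16.1, KPC.2, LLC and MC38.7. Nothing in the labels says that replicates were separate cultures, so p-values measure the spread between libraries, which may be technical.

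To see whether members share promoter elements, 250 bases upstream of RefSeq transcript starts (GRCm38.p6) were searched on both strands for 7 motifs, of which 31 windows belonged to 24 of the 30 members. CCAAT, the box bound by NF-Y, an SREBP partner, was in 21 of the 31 member windows (67.7%) and in 33.8% of 32851 windows of all genes. By gene it was in 14 of 15 sterol enzymes and 2 of 5 fatty acid enzymes. The GC box GGGCGG was in 74.2% and 32.7%, and the E-box CACGTG in 12.9% and 6.02%. The sterol regulatory element, searched as TCACNCCAC, was in Hmgcs1 alone among these 24 members and in 1.05% of all windows. The shorter CACNCCAC, which it contains, was in Acat2, Hmgcs1 and Insig1 and in 5.29% of all. The interferon-gamma site TTCNNNGAA and the interferon element, a pair of GAAA with 2 bases between them, were in Ebp alone among the 24. They were in 7.02% and 2.98% of all windows.

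Promoters are shown for Hmgcs1, the HMG-CoA synthase with the only TCACNCCAC match among the 24 members searched, and for Mvd, one of the members lowered most. Those of Fasn, which did not pass in Panc02.3 with IFNg, and Ebp, the only member that rose with IFNg in B16.1, are also shown. They lie at chr13:119690101-119690350 on the plus strand, chr8:122443423-122443672 on the minus strand, chr11:120824548-120824797 on the minus strand and chrX:8193513-8193762 on the minus strand, each ending at the base before the start. They are written 5′ to 3′ on the gene's strand, and capitals mark the searched motifs other than the GC box. A match is only a match of letters.
Hmgcs1: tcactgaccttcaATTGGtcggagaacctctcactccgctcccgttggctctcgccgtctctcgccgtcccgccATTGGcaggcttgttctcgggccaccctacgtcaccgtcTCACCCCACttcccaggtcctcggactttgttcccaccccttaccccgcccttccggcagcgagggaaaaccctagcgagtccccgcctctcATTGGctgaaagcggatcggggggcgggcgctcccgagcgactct
Mvd: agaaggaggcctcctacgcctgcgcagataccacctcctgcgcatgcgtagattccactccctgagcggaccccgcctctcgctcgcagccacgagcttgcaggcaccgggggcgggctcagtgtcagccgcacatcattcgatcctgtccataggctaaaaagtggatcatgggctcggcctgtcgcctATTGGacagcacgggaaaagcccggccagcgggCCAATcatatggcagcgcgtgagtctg
Fasn: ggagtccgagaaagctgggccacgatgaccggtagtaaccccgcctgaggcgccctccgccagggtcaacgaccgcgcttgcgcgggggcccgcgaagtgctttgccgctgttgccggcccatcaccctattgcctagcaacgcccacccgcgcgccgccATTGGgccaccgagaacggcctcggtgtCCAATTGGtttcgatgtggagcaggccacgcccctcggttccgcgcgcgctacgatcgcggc
Ebp: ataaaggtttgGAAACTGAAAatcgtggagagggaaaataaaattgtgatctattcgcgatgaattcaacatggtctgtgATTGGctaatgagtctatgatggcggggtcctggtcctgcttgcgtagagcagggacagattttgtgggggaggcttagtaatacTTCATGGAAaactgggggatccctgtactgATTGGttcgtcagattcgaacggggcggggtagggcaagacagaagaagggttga
In Hmgcs1 the capitals are CCAAT boxes read on the opposite strand and, between them, the sterol element. In Ebp they include the match to the pair of GAAA at the left end and the TTCNNNGAA match at base −85 from the start.

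Without cytokine, the lines already differed in all 30 members (F test across the 8 lines, edgeR adjusted p under 0.05), as did 96.5% of all genes tested. CT26.2 had the lowest mean level of 20 members and KPC.2 the highest of 15, including 6 of the 7 mevalonate enzymes. Renca was highest for 6 members, among them Srebf2, Fdps and Acss2. The ratio of the highest to the lowest line ran from 1.95 for Acaca, the carboxylase that makes malonyl-CoA, to 28.2 for Tm7sf2, a sterol reductase. Elovl6, the elongase of 16-carbon fatty acids, was an exception with 0.191 CPM in Renca against 185 CPM in LLC, and no fold change of Elovl6 in Renca is interpreted here. Per kilobase of the longest transcript, the median line had 403 CPM of Scd2 and 79.0 CPM of Acly, against 2.51 CPM of Tm7sf2.

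**Figure D1:**
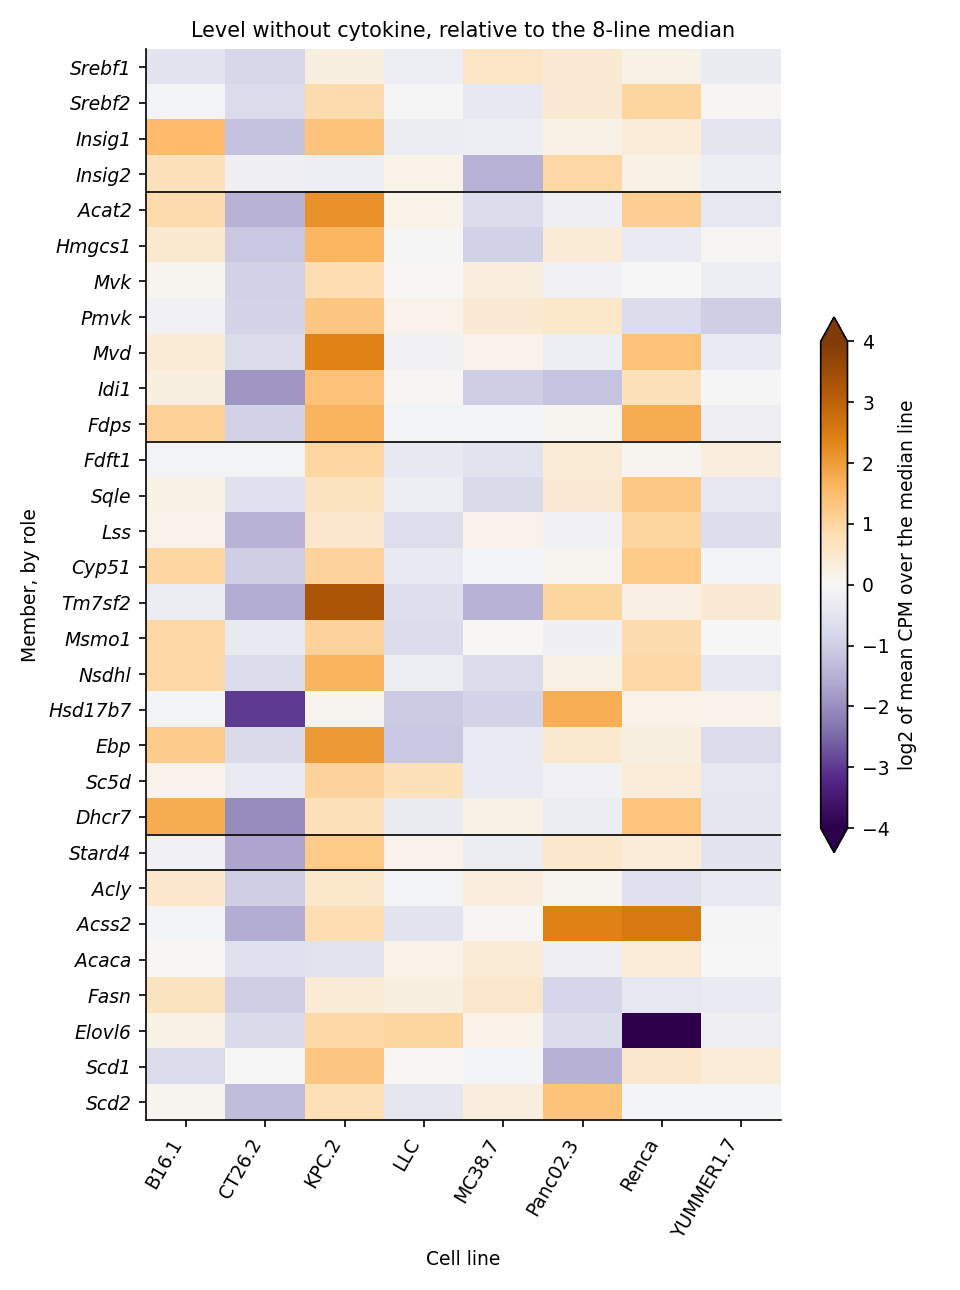
Level of each member without cytokine in 8 lines, as log2 of the mean CPM over the median of the 8 line means (colour; 2 or 3 libraries per line). Horizontal lines separate regulators, mevalonate steps, steps from squalene synthesis to cholesterol, Stard4 and the fatty acid branch. KPC.2 is high and CT26.2 low for most members, and Elovl6 in Renca lies below the colour scale.

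With IFNg the members fell together in Panc02.3 and B16.1, fell to a smaller extent in YUMMER1.7, and in the other 5 lines fewer members passed in either direction, most of them higher in KPC.2 and MC38.7 and lower in Renca. In Panc02.3, 28 of 30 members fell and none rose, where 31.6% of all genes fell and 23.2% rose, and 25 of the 30 were at least 2-fold lower. In B16.1, 27 fell and 1 rose (26.5% and 27.6% of all genes), and 12 were at least 2-fold lower. In YUMMER1.7, 18 fell and none rose (11% and 9.79% of all genes), with no member 2-fold lower. When replicate 3 of every group was left out, 10 fell, as did 906 of all 16321 genes tested. The median log2 fold change of the 30 members was −1.82 in Panc02.3, −0.86 in B16.1 and −0.26 in YUMMER1.7, beside −0.07, 0.00 and −0.03 over all genes.

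In KPC.2, 11 members rose and 3 fell with IFNg, beside 13.8% and 15.8% of all genes. The 11 comprised 9 sterol enzymes, Insig2 and Acss2, and their increases were small, from 0.16 to 0.59 on the log2 scale. Without replicate 3 of every group, 6 rose, as did 1683 of all 16321 genes tested. In MC38.7, 4 members rose and none fell (3.89% and 0.886% of all genes). In LLC, 2 rose and 1 fell (6.65% and 4.6%). When LLC was fitted alone, 11 rose and 4 fell, beside 1941 and 1623 of 13012 genes. When 1 replicate number was left out of every group, 0 to 2 rose and 0 fell. Of all genes, 561 to 903 then rose and 217 to 487 fell. In CT26.2, 1 rose and 2 fell (4.97% and 3.86%), and in Renca 1 rose and 6 fell (6.04% and 5.16%). Without 1 replicate number in every group, between 1 and 4 members fell in Renca and between 1 and 3 rose in MC38.7. Of all genes, 246 to 594 then fell in Renca and 410 to 449 rose in MC38.7. The mean over the 8 lines was lower for 28 members and higher for none (23.7% and 18.3% of all genes). Its error is the spread between libraries within groups, so a call covers the mean of these 8 lines and does not show that they respond alike. Without Panc02.3 in that mean, 22 were lower and 1 was higher (19.2% and 15.3% of all genes).

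IFNb gave another order of lines. B16.1 had the most members lower, 27 of 30 with none higher, beside 14.3% and 14.6% of all genes. LLC followed with 21 lower and 3 higher (21.0% and 17.6%), MC38.7 with 16 lower and 3 higher (16.8% and 13.8%), and Renca with 12 lower and none higher (6.82% and 7.1%). Panc02.3, the line with the largest changes under IFNg, had 8 lower and 2 higher under IFNb (2.82% and 3.33%). KPC.2 had 3 lower and none higher (1.93% and 2.52%), YUMMER1.7 had 1 lower and none higher (0.972% and 0.384%), and CT26.2 had none lower and 1 higher (0.929% and 1.97%). The mean over the 8 lines, with the same limit as for IFNg, was lower for 24 members and higher for 2, Fasn and Acaca, beside 17.3% and 13.0% of all genes. With 1 replicate number left out of every group, the members lower in Renca numbered 4 to 10, those lower in Panc02.3 3 to 5 and those lower in KPC.2 0 to 2. Of all genes, 498 to 754 were then lower in Renca, 141 to 332 in Panc02.3 and 78 to 145 in KPC.2.

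**Figure D2:**
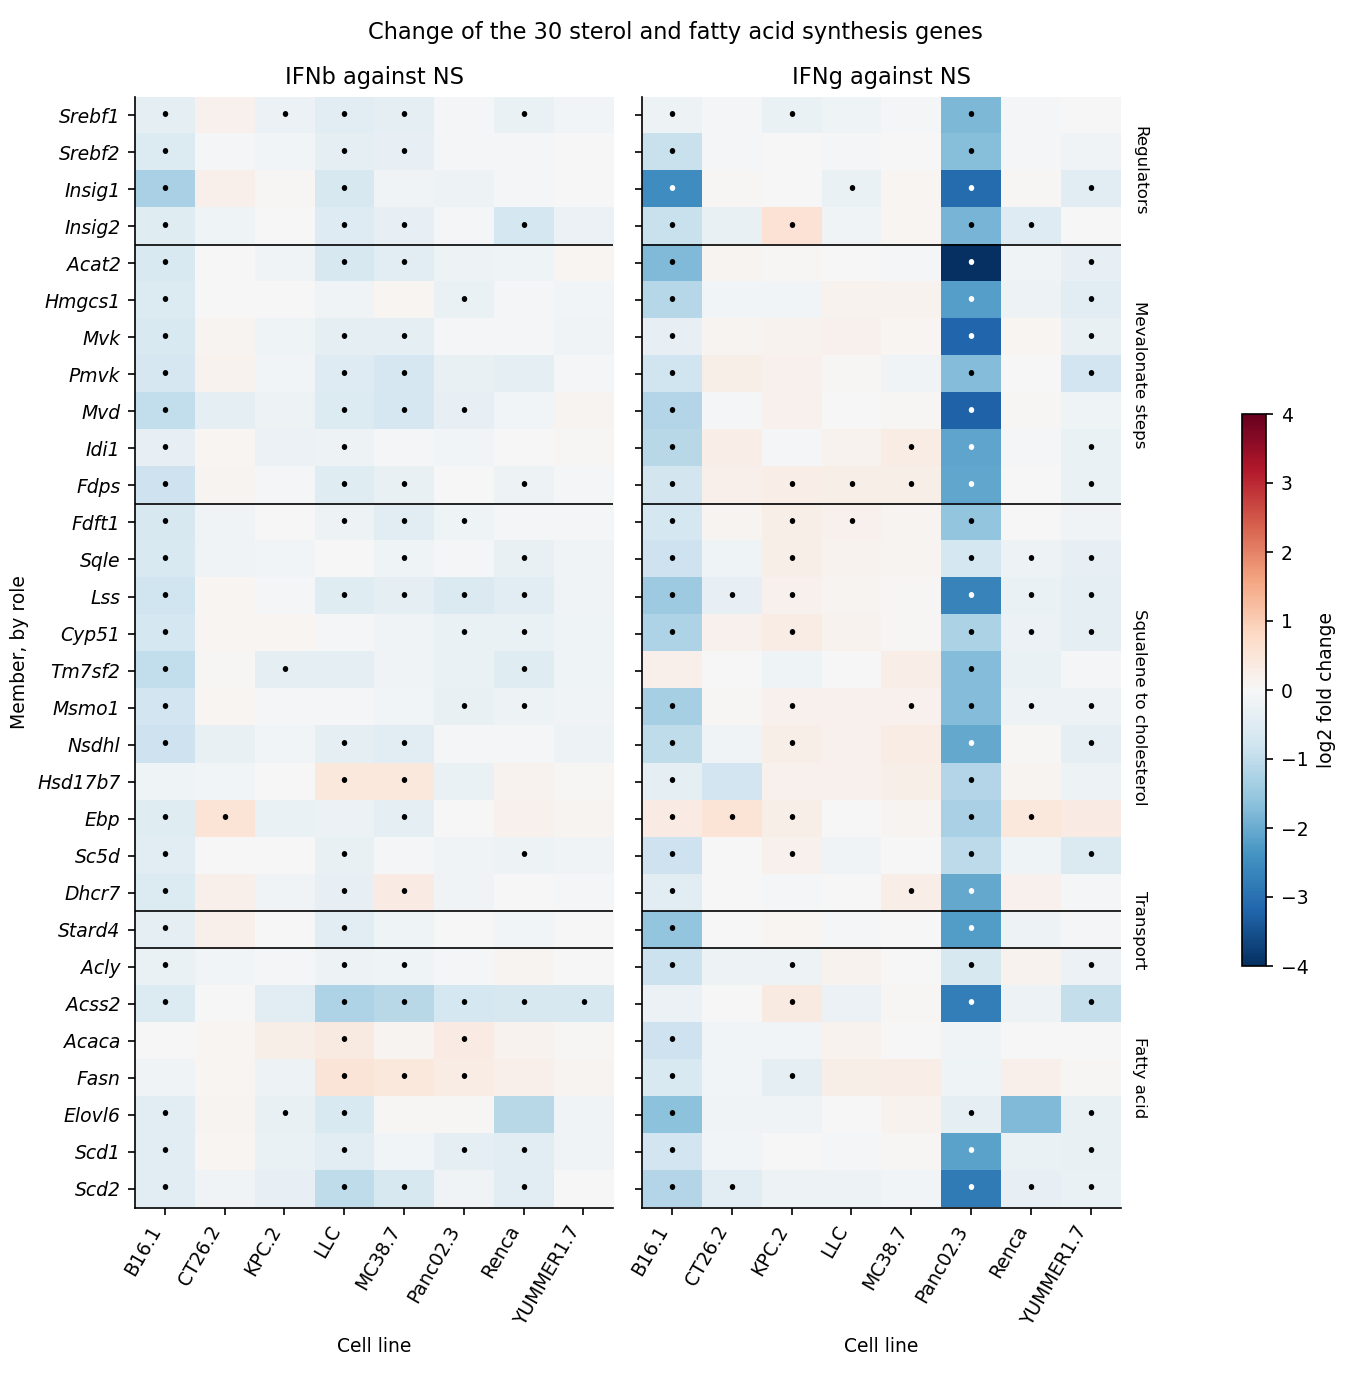
Log2 fold change of the 30 members (rows, grouped by role) against NS in each of 8 lines (columns), for IFNb on the left and IFNg on the right; blue is lower, red is higher, and a dot marks an edgeR adjusted p under 0.05. The Panc02.3 column under IFNg reaches −3.99 for Acat2, while the same line under IFNb has 8 members lower and 2 higher. The fits for IFNb and IFNg share the NS libraries of each line.

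Because the IFNb and IFNg comparisons share the NS libraries, the cytokines were also compared with each other. In Panc02.3 all 30 members were lower with IFNg than with IFNb, where 30.4% of all genes were lower, and 23 were at least 2-fold lower. In B16.1, 18 members were lower and 4 higher with IFNg (24.5% and 26.0%), and in YUMMER1.7, 11 were lower and none higher (7.73% and 9.09%). The order was opposite in LLC, where 25 were higher and 2 lower with IFNg (16.8% and 12.5%), in MC38.7, where 20 were higher and none lower (17.8% and 10.5%), and in KPC.2, where 13 were higher and 1 lower (10.9% and 9.18%). Renca had 4 higher and none lower (5.25% and 4.19%), and CT26.2 had 2 lower and none higher (1.5% and 2.51%). The count lower in YUMMER1.7 was 5 without replicate 2 or without replicate 3, and that higher in KPC.2 was 6 without replicate 1. Over all genes, these counts were 943 of 16605, 629 of 16321 and 1117 of 16694, respectively.

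The response to each cytokine differed between lines for all 30 members in the F test, beside 48.2% of all genes for IFNb and 69.2% for IFNg. Each line was then set against the mean of the other 7. For IFNg, the Panc02.3 response was lower than that mean for 27 members and higher for none (26.6% and 19.8% of all genes), and the B16.1 response was lower for 23 and higher for 3 (20.7% and 23.9%). The 3 members that did not pass in Panc02.3 were Acaca (−0.00 ± 0.10, log2 ± SE), Fasn (−0.12 ± 0.10) and Elovl6, for which the mean includes the near-zero Renca libraries and no value is given. Since the mean for each other line includes Panc02.3, the departures were recomputed without it. Then B16.1 was lower for 26 members and higher for none (21.3% and 23.4% of all genes), MC38.7 higher for 22 (6.3%), KPC.2 higher for 16 and lower for 2 (10.5% and 10.1%), LLC higher for 14 (3.5%), CT26.2 higher for 6 (3.64%) and Renca higher for 3 and lower for 1 (5.68% and 6.87%). With Panc02.3 in the mean, MC38.7 was higher for 27 members (10.1% of all genes), LLC for 26 (4.39%), KPC.2 for 23 and lower for 1 (13.0% and 10.9%), Renca higher for 21 (7.78%) and CT26.2 for 18 (5.55%). YUMMER1.7 had 10 members higher and 2 lower than the mean of the other 7 lines (6.58% and 7.23% of all genes), but 8 lower and none higher once Panc02.3 was left out (6.91% and 4.95%).

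For IFNb, the line that stood apart was B16.1, with 22 members lower than the mean of the other 7 lines and none higher (8.51% and 9.62%). LLC had 11 lower and 5 higher (13.6% and 11.3%) and MC38.7 had 7 lower and 4 higher (9.79% and 8.59%). CT26.2 had 8 higher and none lower (1.95% and 2.87%), KPC.2 had 4 higher and 1 lower (1.06% and 0.948%), Panc02.3 had 3 higher and 1 lower (1.85% and 2.55%), Renca had 4 higher and 1 lower (5.71% and 5.55%), and YUMMER1.7 had 5 higher and none lower (1.51% and 3.77%). Leaving out 1 replicate number from every group gave 9 or 10 departures in LLC, 2 to 7 in MC38.7, 2 to 9 in CT26.2, 1 to 3 in KPC.2, 1 in Panc02.3, 2 to 4 in Renca and 1 to 5 in YUMMER1.7. The shares of all genes for these left-out counts are not given here. In LLC the 5 higher were Hsd17b7, Sqle and Msmo1 of the sterol branch and Acaca and Fasn of the fatty acid branch.

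The regulators moved with the enzymes in the lines with the largest changes. Insig1, which retains the SREBP complex in the endoplasmic reticulum, was at 173, 155 and 172 CPM in the 3 Panc02.3 NS libraries, at 145, 143 and 143 CPM with IFNb and at 17.1, 20.3 and 24.3 CPM with IFNg. Every IFNg library lay below every NS and IFNb library, and the fall with IFNg was 8.38-fold (log2 −3.07 ± 0.10 SE, edgeR adjusted p = 4.9e-34). The log2 fold change with IFNb, −0.21 ± 0.07, did not pass (edgeR adjusted p = 0.05002). In B16.1, Insig1 went from 410, 400 and 441 CPM to 169, 173 and 170 CPM with IFNb and 83.0, 70.2 and 70.2 CPM with IFNg. The 3 groups did not overlap, with log2 fold changes of −1.29 ± 0.07 and −2.49 ± 0.07 against NS (adjusted p = 1.0e-23 and 4.6e-37). Insig1 also fell with IFNb in LLC (−0.64) and with IFNg in YUMMER1.7 (−0.42). A fall with IFNg in LLC (−0.28) ended whichever replicate number was left out.

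Srebf2, whose product acts mainly on sterol genes, was at 431, 460 and 447 CPM in Panc02.3 NS, 435, 432 and 416 CPM with IFNb and 136, 129 and 148 CPM with IFNg. The IFNg libraries stood apart from the other 6, and the fall was 3.25-fold (log2 −1.70 ± 0.06, edgeR adjusted p = 1.2e-32). In B16.1 it was at 314, 322 and 304 CPM without cytokine, 220, 225 and 199 CPM with IFNb and 171, 166 and 168 CPM with IFNg, again without overlap, with log2 fold changes of −0.55 ± 0.05 and −0.90 ± 0.06. Its log2 fold change with IFNg lay between −0.13 and 0.01 in the other 6 lines, and none of these passed. With IFNb it also fell in LLC (−0.39) and MC38.7 (−0.34).

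Srebf1, whose product acts more on fatty acid genes, was at 264, 271 and 257 CPM in Panc02.3 NS, 256, 261 and 254 CPM with IFNb and 76.6, 74.3 and 76.8 CPM with IFNg. It fell 3.48-fold with IFNg (log2 −1.80 ± 0.06, edgeR adjusted p = 3.6e-33), with no overlap between IFNg and the other libraries. In B16.1 the order of the cytokines was the reverse of that for Srebf2. Srebf1 there was at 141, 138 and 140 CPM in NS, 113, 115 and 88.8 CPM with IFNb and 123, 118 and 127 CPM with IFNg, and was higher with IFNg than with IFNb (0.21 ± 0.06, adjusted p = 0.0014). IFNb also lowered Srebf1 in KPC.2 (−0.24), LLC (−0.45), MC38.7 (−0.36) and Renca (−0.28), of which the call in KPC.2 ended without replicate 1, without replicate 2 or without the filter on low counts, and that in Renca without replicate 3.

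Insig2, the other INSIG protein, was at 79.8, 99.4 and 97.0 CPM in Panc02.3 NS and 27.5, 22.2 and 26.5 CPM with IFNg, a fall of 3.59-fold (log2 −1.84 ± 0.10, edgeR adjusted p = 1.1e-23). In KPC.2 it went the other way. NS libraries there had 37.3, 39.6 and 43.4 CPM and IFNg libraries 58.8, 67.0 and 55.1 CPM, and it rose by 0.59 ± 0.09 (adjusted p = 2.1e-07). In Renca the 2 NS libraries had 49.9 and 58.5 CPM, the IFNb libraries 32.9, 34.8 and 32.8 CPM and the IFNg libraries 38.4, 37.8 and 37.6 CPM. Both treated groups lay below NS, with log2 fold changes of −0.69 ± 0.09 and −0.51 ± 0.09 (adjusted p = 2.6e-08 and 1.7e-05).

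**Figure D3:**
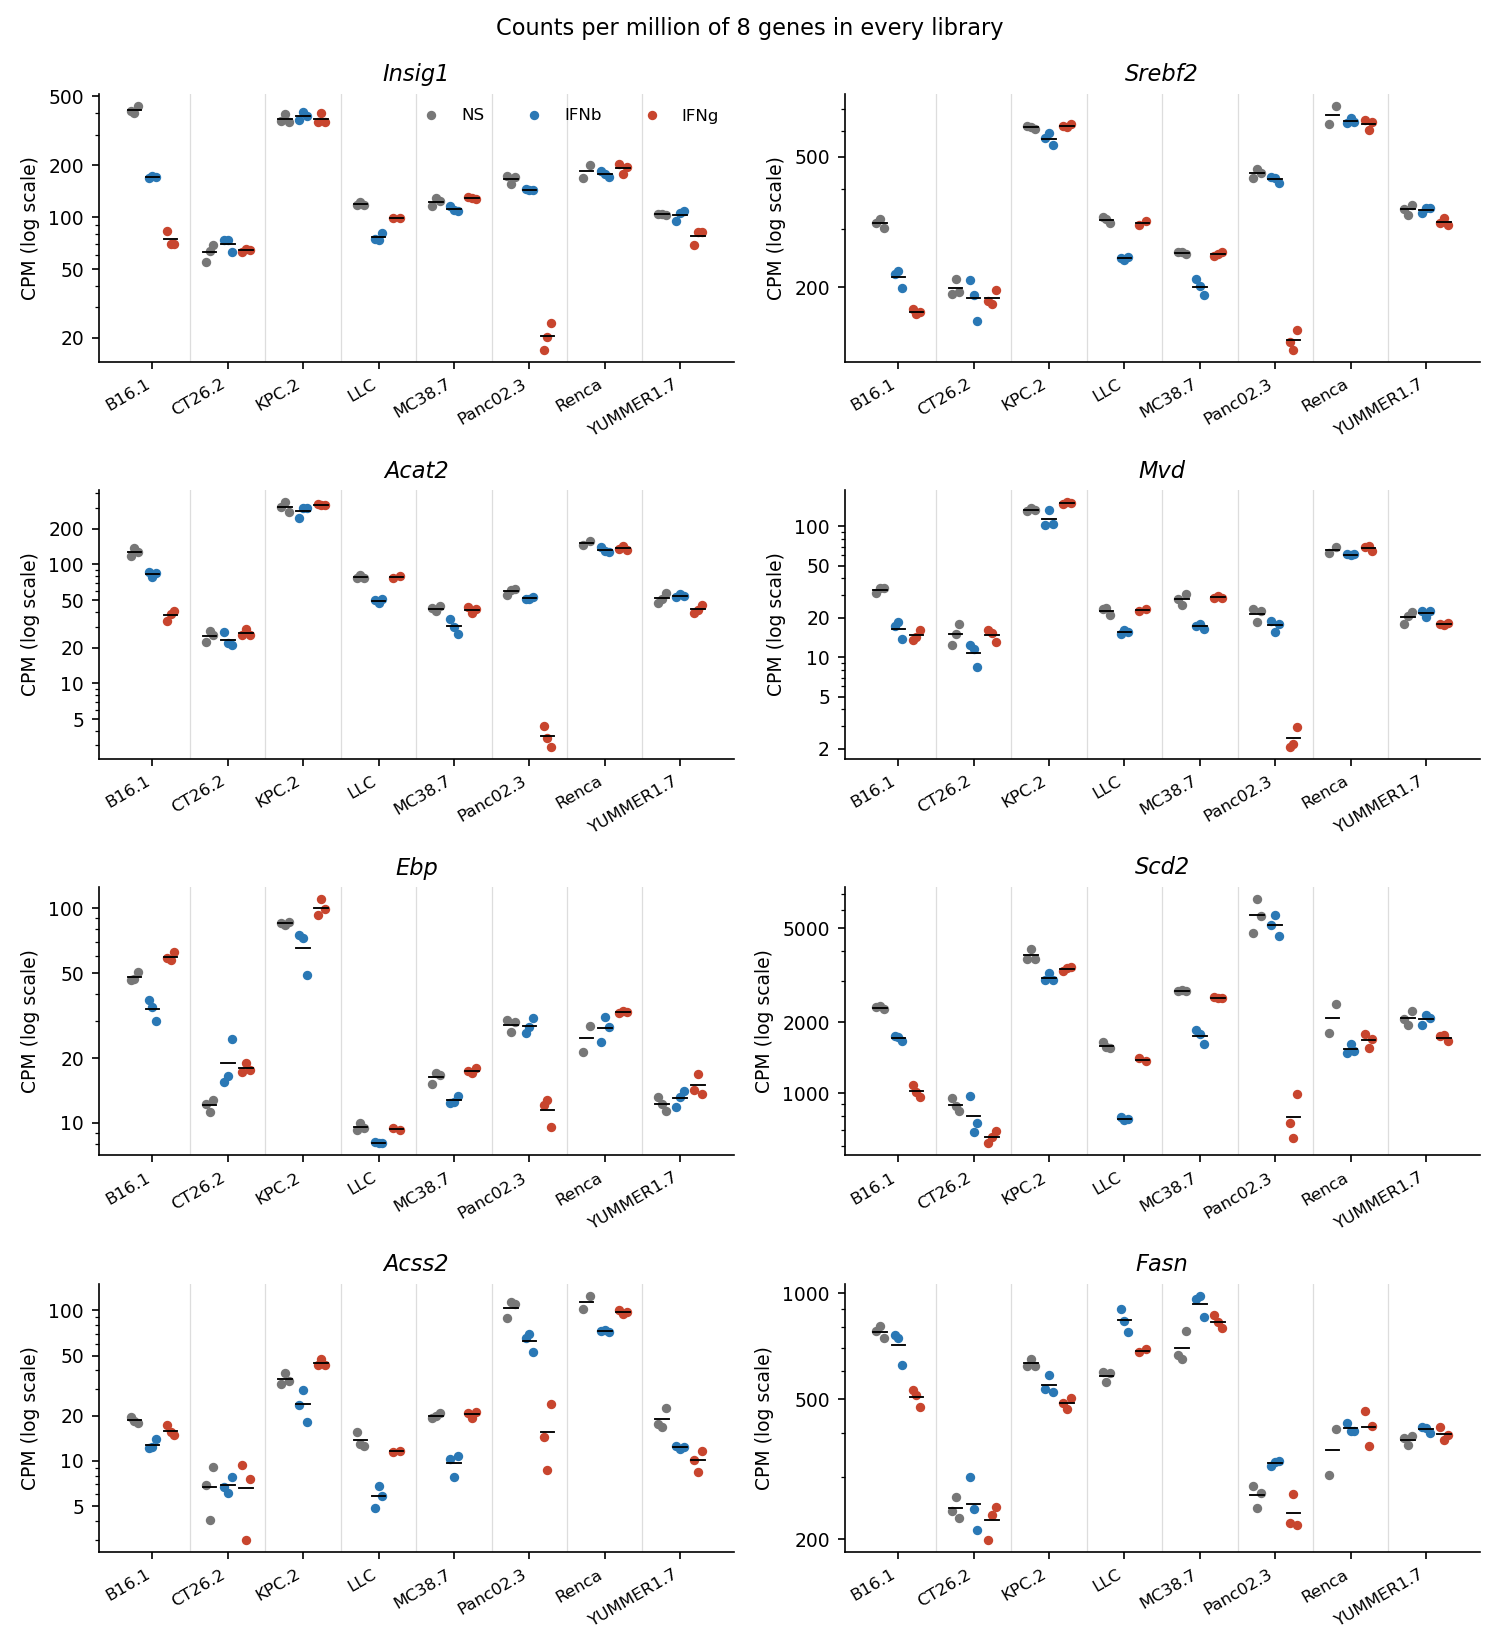
CPM of 8 members in every library (points; log axis), by line and treatment, with group means as bars. Under IFNg in Panc02.3, Insig1, Srebf2, Acat2, Mvd, Scd2 and Acss2 lie apart from NS while Fasn overlaps it. The rise of Ebp with IFNg passed the edgeR test in B16.1, CT26.2, KPC.2 and Renca.

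Among the 7 enzymes from acetyl-CoA to farnesyl diphosphate, all 7 fell with IFNg in Panc02.3 and in B16.1, with median log2 fold changes of −2.20 and −1.10, and 6 fell in YUMMER1.7 (−0.31). Acat2, the cytosolic thiolase that joins 2 acetyl-CoA units at the start of the pathway, had the largest fall of any member. Panc02.3 NS libraries had 55.8, 60.7 and 62.4 CPM, IFNb libraries 51.7, 50.8 and 53.2 CPM and IFNg libraries 4.36, 3.43 and 2.94 CPM. All 3 IFNg libraries were far below the rest, a 15.9-fold fall (log2 −3.99 ± 0.16, edgeR adjusted p = 1.6e-29). In B16.1 Acat2 went from 118, 138 and 128 CPM to 33.4, 38.5 and 40.7 CPM with IFNg (−1.77 ± 0.08, adjusted p = 5.3e-27), also without overlap. Of the 31-base words in Acat2 transcripts, 43.7% also occur in the near-identical Acat3, to which at most 45 counts were assigned in any library.

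Mvd, the decarboxylase that yields isopentenyl diphosphate, was at 23.4, 18.5 and 22.7 CPM in Panc02.3 NS, 18.8, 15.5 and 18.1 CPM with IFNb and 2.08, 2.19 and 2.94 CPM with IFNg. The fall with IFNg was 9.35-fold (log2 −3.22 ± 0.20, edgeR adjusted p = 2.8e-21), whereas the groups overlapped for IFNb (−0.34 ± 0.10, adjusted p = 0.036), a call that ended whichever replicate number was left out. In B16.1 its values were 31, 33.6 and 33.7 CPM in NS, 17.2, 18.5 and 13.8 CPM with IFNb and 13.6, 14.2 and 16.2 CPM with IFNg. There IFNb and IFNg overlapped each other and both lay below NS (−0.97 ± 0.10 and −1.16 ± 0.10, adjusted p = 7.9e-12 and 2.4e-15). Mvk, mevalonate kinase, was at 21.6, 27.3 and 24.1 CPM in Panc02.3 NS, 23.6, 21.9 and 23.8 CPM with IFNb and 3.41, 2.19 and 1.84 CPM with IFNg. It fell 8.99-fold with IFNg (log2 −3.17 ± 0.21, adjusted p = 3.3e-20), while its fall in B16.1 was −0.32 ± 0.11 and ended without replicate 2.

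Fdps, farnesyl diphosphate synthase, was at 337, 351 and 337 CPM in B16.1 NS, 204, 192 and 179 CPM with IFNb and 195, 205 and 210 CPM with IFNg. The treated groups overlapped each other and not NS, with log2 fold changes of −0.83 ± 0.06 and −0.75 ± 0.06 (edgeR adjusted p = 2.2e-18 and 1.8e-17). In Panc02.3 only the IFNg libraries were low, at 41.1, 38.4 and 38.2 CPM against 162, 166 and 177 CPM in NS and 170, 170 and 175 CPM with IFNb. In KPC.2, LLC and MC38.7 Fdps rose with IFNg by 0.25, 0.24 and 0.23, and the calls in LLC and MC38.7 ended without replicate 3 and without replicate 2, respectively. Hmgcs1, Pmvk and Idi1, which make HMG-CoA, add the second phosphate and isomerise isopentenyl diphosphate, had log2 fold changes with IFNg of −2.20, −1.74 and −2.12 in Panc02.3 and −1.14, −0.80 and −1.10 in B16.1, and all 6 passed.

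Of the 11 enzymes from squalene synthesis to cholesterol, 11 fell with IFNg in Panc02.3 (median −1.57), 9 fell and 1 rose in B16.1 (−0.82), and 8 rose in KPC.2 (0.19). The falls in Panc02.3 ran from −0.70 for Sqle, the squalene epoxidase, to −2.67 for Lss, which closes the sterol ring. Tm7sf2 was the low-level exception in B16.1. Its NS libraries had 6.60, 6.28 and 6.45 CPM, IFNb libraries 3.34, 3.05 and 3.26 CPM and IFNg libraries 7.05, 7.40 and 7.64 CPM. It fell with IFNb (−1.0 ± 0.19, edgeR adjusted p = 1.9e-05) and did not pass with IFNg (0.19 ± 0.15), and the cytokines differed (1.19 ± 0.18, adjusted p = 9.7e-08). Tm7sf2 shares 10.7% of its 31-base words with its overlapping neighbour Vps51, which had a median of 342 counts against 68 for Tm7sf2, so part of its counts may belong to Vps51.

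Ebp, the sterol isomerase that moves a double bond in the ring, was chosen for description after its values were seen. In B16.1 it was at 46.4, 46.7 and 50.3 CPM in NS, 37.4, 34.6 and 30 CPM with IFNb and 58.8, 57.6 and 62.7 CPM with IFNg. The 3 groups did not overlap: it fell with IFNb (−0.48 ± 0.09, edgeR adjusted p = 2.1e-05) and rose with IFNg (0.32 ± 0.08, adjusted p = 0.00089). Ebp rose with IFNg in CT26.2 as well, from 12.2, 11.2 and 12.9 CPM to 17.2, 19.0 and 17.7 CPM (0.56 ± 0.15), and in KPC.2 (0.24) and Renca (0.42). The calls in CT26.2 and Renca ended when each line was fitted alone, and those in CT26.2, KPC.2 and Renca ended when replicate 2 of every group was left out. In Panc02.3 it fell from 30.1, 26.5 and 29.4 CPM to 12.1, 12.8 and 9.56 CPM (−1.30 ± 0.14). It was the only member of the 30 that rose with IFNg in B16.1.

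**Figure D4:**
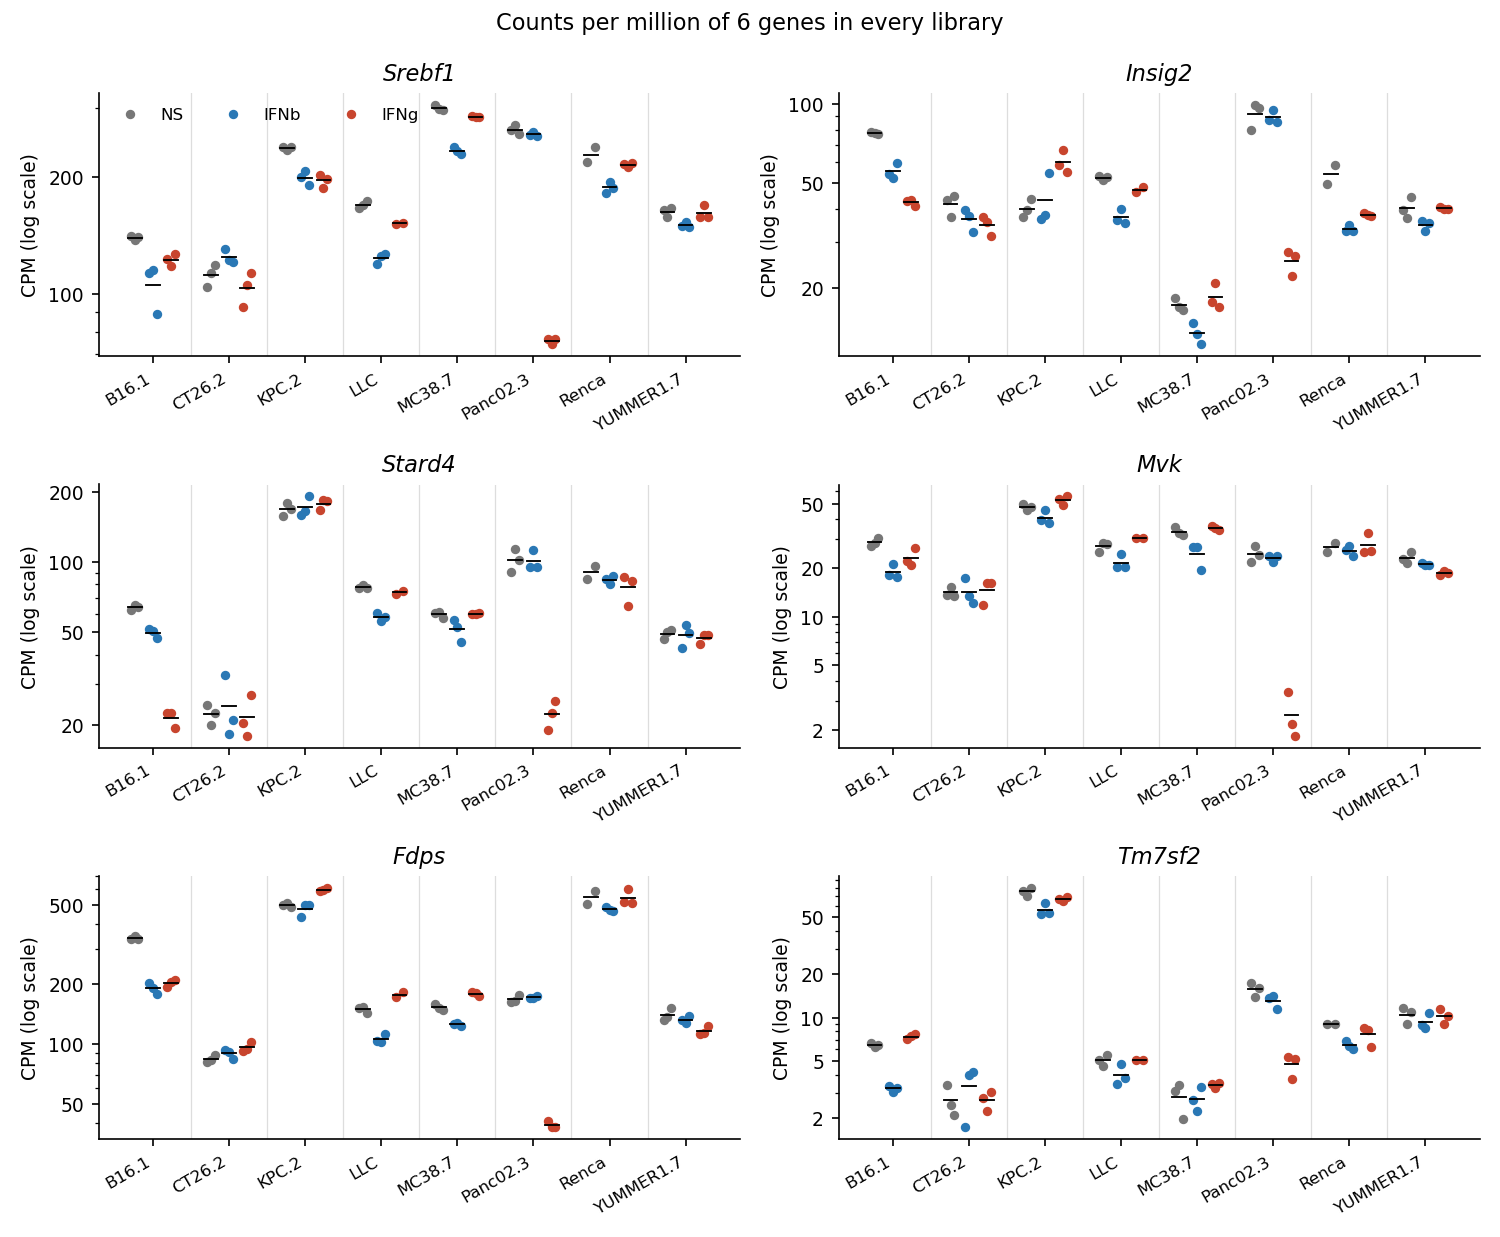
CPM of 6 further members in every library (points; log axis), by line and treatment, with group means as bars. Under IFNg in Panc02.3 all 6 lie apart from NS, and in B16.1 with IFNb Srebf1, Insig2, Stard4, Mvk, Fdps and Tm7sf2 lie below NS.

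Stard4, which carries cholesterol between membranes and is an SREBP target, was at 90.2, 114 and 102 CPM in Panc02.3 NS, 95.1, 112 and 94.7 CPM with IFNb and 19.0, 22.5 and 25.4 CPM with IFNg. The fall with IFNg was 4.69-fold (log2 −2.23 ± 0.13, edgeR adjusted p = 2.5e-22), and IFNb overlapped NS. In B16.1 it went from 62.4, 65.2 and 64.2 CPM to 51.5, 50.6 and 46.9 CPM with IFNb and 22.5, 22.4 and 19.4 CPM with IFNg (−0.36 ± 0.10 and −1.58 ± 0.11), without overlap between any 2 groups, and the call with IFNb ended without replicate 3. It fell in no other line with IFNg, where its log2 fold change lay between −0.22 and 0.08.

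The fatty acid branch split in Panc02.3. Under IFNg, Scd1, Scd2 and Acss2 fell by 2.13, 2.83 and 2.77 on the log2 scale, Acly by 0.65 and Elovl6 by 0.40, while Fasn and Acaca did not pass. The Elovl6 call ended without replicate 1 and when Panc02.3 was fitted alone. Scd2, a stearoyl-CoA desaturase and the most abundant member per length, was at 4756, 6642 and 5630 CPM in NS, 5140, 5693 and 4621 CPM with IFNb and 750, 647 and 996 CPM with IFNg. The IFNg libraries lay apart from both other groups (7.13-fold lower, log2 −2.83 ± 0.11, edgeR adjusted p = 2.3e-31). Acss2, which makes acetyl-CoA from acetate, was at 89.0, 113 and 109 CPM in NS, 65.7, 69.4 and 53.2 CPM with IFNb and 14.4, 8.74 and 23.9 CPM with IFNg. The 3 groups did not overlap, with log2 fold changes of −0.72 ± 0.11 and −2.77 ± 0.16 (adjusted p = 1.6e-06 and 4.3e-23).

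Fasn, fatty acid synthase, and Acaca, also described after their values were seen, were the 2 members that did not pass with IFNg in Panc02.3. Panc02.3 NS libraries had 284, 246 and 270 CPM of Fasn, IFNb libraries 323, 333 and 335 CPM and IFNg libraries 222, 270 and 221 CPM. NS and IFNg overlapped (−0.17 ± 0.09, edgeR adjusted p = 0.12), and the IFNb libraries lay above both (0.30 ± 0.09 against NS, adjusted p = 0.025). Acaca had 136, 140 and 133 CPM in NS, 154, 183 and 176 CPM with IFNb and 118, 136 and 122 CPM with IFNg, the same pattern (0.33 ± 0.08, adjusted p = 0.0075, and −0.13 ± 0.09, adjusted p = 0.25). Both rises with IFNb ended without replicate 2 or without replicate 3 of every group, and that of Fasn also when Panc02.3 was fitted alone. In B16.1, by contrast, both fell with IFNg, Fasn from 782, 806 and 748 CPM to 533, 513 and 476 CPM (−0.62 ± 0.09) and Acaca from 166, 160 and 153 CPM to 90.7, 90.6 and 85.9 CPM (−0.84 ± 0.09). The difference between these 2 lines was not tested on its own. Of the 31-base words of Acaca, 31.7% also occur in Gm5182, which had at most 74 counts.

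With IFNb the branch split in LLC. Scd2 there was at 1647, 1578 and 1555 CPM in NS, 794, 769 and 782 CPM with IFNb and 1406 and 1375 CPM in the 2 IFNg libraries. It fell with IFNb by 1.03 ± 0.10 (log2, edgeR adjusted p = 3.2e-13), with all 3 libraries far below NS, and did not pass with IFNg (−0.20 ± 0.11). Acss2 was at 15.6, 12.9 and 12.6 CPM in NS, 4.87, 6.79 and 5.83 CPM with IFNb and 11.4 and 11.7 CPM with IFNg, falling with IFNb (−1.24 ± 0.17, adjusted p = 1.1e-08). Fasn and Acaca rose in the same libraries, Fasn from 599, 561 and 592 CPM to 900, 834 and 779 CPM (0.52 ± 0.09, adjusted p = 1.2e-06) and Acaca from 181, 175 and 178 CPM to 246, 223 and 220 CPM (0.37 ± 0.08, adjusted p = 0.00012). Neither overlapped NS. Fasn also rose with IFNb in MC38.7 (0.42), whereas Acss2 fell with IFNb in 6 of the 8 lines, from −0.55 in B16.1 to −1.24 in LLC, the exceptions being CT26.2 (−0.01) and KPC.2 (−0.42). The call in B16.1 ended without replicate 1, and that in YUMMER1.7 whichever replicate number was left out.

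Set side by side, 18 of 18 sterol enzymes and 5 of 7 fatty acid enzymes fell with IFNg in Panc02.3, with medians of −1.89 and −0.65. The mean log2 difference from NS over the branch, taken in each library, was −1.98 ± 0.04 (SD, n = 3) for sterol and −1.30 ± 0.10 (SD, n = 3) for fatty acid enzymes. Within a library the sterol mean lay below the fatty acid mean by −0.83 to −0.58, while NS libraries of that line ranged from −0.08 to 0.05. In B16.1 with IFNg 16 of 18 and 6 of 7 fell, with means of −0.82 ± 0.03 and −0.88 ± 0.08 (SD, n = 3) and a difference between branches of 0.06 ± 0.08. With IFNb in B16.1 the sterol branch was lower, −0.64 ± 0.03 against −0.33 ± 0.02, with 17 of 18 and 5 of 7 enzymes lower. In KPC.2 with IFNg 9 sterol enzymes rose and none fell, while 2 fatty acid enzymes fell and 1 rose, beside 15.8% of all genes that fell and 13.8% that rose. The branch means there were 0.13 ± 0.02 and −0.10 ± 0.04, and their difference of 0.18 to 0.28 lay above the NS range of −0.04 to 0.05.

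The other branch means lay between −0.37 and 0.13. With IFNb, sterol and fatty acid means were −0.27 and −0.37 in LLC, −0.23 and −0.20 in MC38.7, −0.19 and −0.09 in Panc02.3 and −0.13 and −0.21 in KPC.2. With IFNg they were −0.27 and −0.28 in YUMMER1.7, where 12 of 18 sterol and 5 of 7 fatty acid enzymes fell, 0.13 and 0.06 in MC38.7 and 0.09 and 0.01 in LLC. CT26.2 had 0.00 and −0.18 with IFNg, with a fatty acid spread of 0.11 (SD, n = 3). In Renca the 2 NS libraries differed by a spread of 0.11 for sterol and 0.24 for fatty acid enzymes, comparable in size with the treated means of −0.21 to −0.06, and Elovl6 near 0 enters its fatty acid mean.

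**Figure D5:**
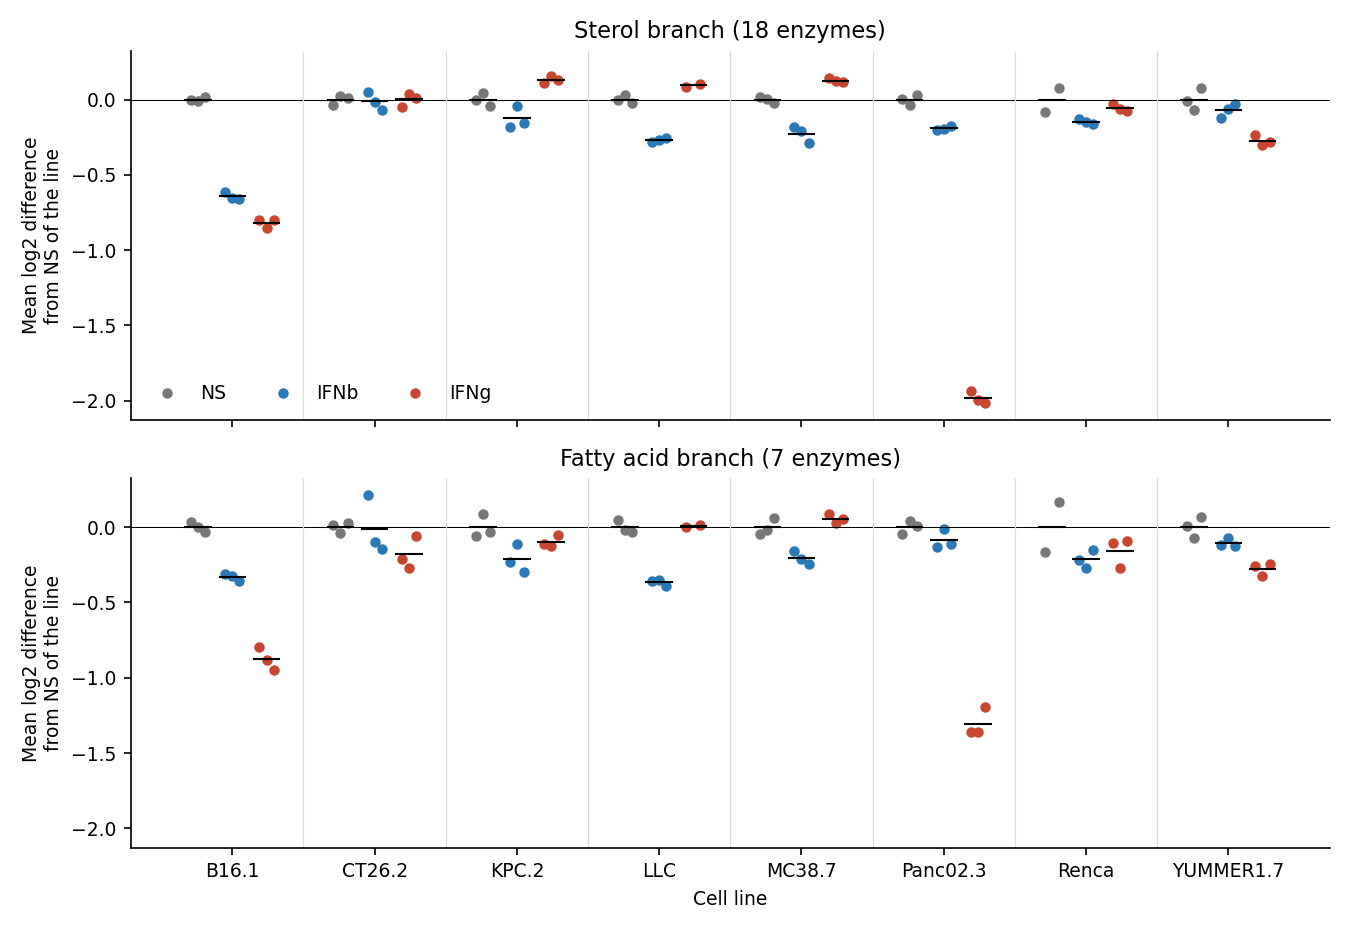
Mean log2 difference of each library from the NS mean of its line, over 18 sterol enzymes (top) and 7 fatty acid enzymes (bottom); points are libraries, bars group means. Under IFNg the 3 Panc02.3 libraries average −1.98 in the sterol branch and −1.30 in the fatty acid branch, the B16.1 libraries −0.82 and −0.88, and the KPC.2 libraries 0.13 and −0.10.

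Other genes of the pathway were counted from lists outside the 30 members, beside 31.6% of all genes that fell and 23.2% that rose with IFNg in Panc02.3, and 26.5% and 27.6% in B16.1. In Panc02.3 the counts below for SREBP processing, efflux and esterification lie near these shares. Of 4 further sterol enzymes tested, 3 fell with IFNg in Panc02.3 and none rose, and in B16.1 3 fell and 1 rose. Of 9 genes of sterol uptake and lysosomal export, 5 fell and 1 rose in Panc02.3 and 6 fell and 1 rose in B16.1. The one that rose in B16.1 was Npc2, a lysosomal cholesterol carrier (1.33), which rose with IFNb by 2.25 in LLC.

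Of 17 further fatty acid and lipid genes, 8 fell and 4 rose with IFNg in Panc02.3, with a median of −0.72. Lpin1, a phosphatidate phosphatase of triglyceride synthesis, fell there by 3.65, from 141 ± 28.6 to 11.6 ± 2.74 CPM (SD, n = 3). Of 9 genes of SREBP processing, 4 fell and 3 rose in Panc02.3, where Mbtps1, the first protease that cuts SREBP, fell by 1.28. In B16.1 2 fell and 5 rose, among them Rnf139 (0.93), an ubiquitin ligase of the endoplasmic reticulum. Of 7 genes of sterol sensing and efflux, 2 fell and 1 rose in Panc02.3, and Lpcat3, a phospholipid acyltransferase, fell by 1.59. Soat2, which esterifies cholesterol, rose with IFNg in Panc02.3 (1.97, from 25 ± 6.16 to 100.1 ± 13.0 CPM), KPC.2 (1.36) and YUMMER1.7 (0.91) and fell in Renca (−0.53). With IFNb it rose in LLC (3.01) and fell in Panc02.3 (−0.76) and Renca (−0.91). Of the 8 tested genes of its list, which covers oxysterols and esterification, 2 fell and 2 rose with IFNg in Panc02.3.

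Other measures moved with these groups, and their part in the results was not tested. The summed level of 5 fibroblast markers in Panc02.3 went from 298 to 407 CPM in NS and 228 to 254 CPM with IFNb to 12.2 to 14.0 CPM with IFNg, with Lum at 0, while 6 epithelial markers summed to 1975 to 2233 CPM in NS and 1747 to 2491 CPM with IFNg, with Epcam and Cldn4 at 0. In B16.1, 7 melanocyte markers went from 19998 to 20390 CPM in NS to 12621 to 13045 CPM with IFNb and 9124 to 9592 CPM with IFNg, and 8 leukocyte markers from 0.86 to 1.37 CPM in NS to 12.2 to 14.4 CPM with IFNg, with Cd14, Itgam and Adgre1 at 0. The 6 epithelial markers went from 5735 to 6152 CPM in KPC.2 NS to 9212 to 9720 CPM with IFNg, and from 293 to 321 CPM in LLC NS to 126 to 128 CPM with IFNb. The leukocyte markers summed to 78.5 to 88.0 CPM in Panc02.3 NS and 93.1 to 129 CPM with IFNg, with Ptprc and Csf1r at 0 in the latter. The 4 adipocyte markers summed to at most 0.37 CPM in Panc02.3 with IFNg. Panc02.3 libraries with IFNg held 2703009 to 5454068 counts against 6261596 to 12665956 in NS. Mitochondrially encoded genes took 1.39% to 1.66% of counts in Panc02.3 with IFNg against 1.56% to 2.33% in NS, 2.82% to 2.97% in B16.1 with IFNg against 1.75% to 2.08% in NS, 1.42% to 1.45% in LLC with IFNb against 1.95% to 2.13%, and 2.31% to 2.88% in KPC.2 with IFNg against 3.15% to 3.79%. In Renca they took 3.46% to 4.89% in NS, 3.04% to 3.46% with IFNb and 2.35% to 2.72% with IFNg, and in YUMMER1.7 2.47% to 2.61% in NS and 2.10% to 2.28% with IFNg. In bulk RNA, fewer cells of a kind and less RNA per cell cannot be told apart.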

How the data were processed

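RNA from 70 libraries of 8 cell lines was sequenced. Per the labels' protocols, RNA was taken with RNeasy kits and libraries were made with a directional NEB Ultra II kit. The authors deposited 1 table of whole-number estimated counts per gene. Per the submitters' processing notes, reads were processed with Trimmomatic 0.36 and kallisto against mm10 (GRCm38). The kallisto version and the summing of transcripts to genes are not given in the sources used here.

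All 70 libraries were fitted together on the deposited estimated counts with edgeR 4.0.16 in R 4.3.3 (quasi-likelihood test, TMM, filterByExpr, 1 coefficient per group of line and treatment), and p-values were adjusted by Benjamini-Hochberg over 16147 genes. "Rose", "fell", "higher" and "lower" of a counted member mean an adjusted p under 0.05. Errors of log2 fold changes are standard errors, taken as the absolute change over the root of F. CPM used TMM library sizes, and branch means used log2 CPM with a prior count of 2. DESeq2 1.42.0, RLE size factors, no filter, lines fitted alone, a replicate block and left-out libraries were the alternatives. Leaving 1 line out of the comparisons between lines was added after seeing the data.

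The members and lists were chosen with earlier results of these data known. Values in every library are plotted, and given in the text for the lines with the main changes, for the 4 regulators, Stard4 and, per cytokine, the 3 sterol and 2 fatty acid enzymes with the largest called change in any 1 line. From each other list, up to 2 genes with the largest called change were eligible to be named. Some of these are not reported here. On simulated counts for the Panc02.3 comparison with IFNg, 97.0% of genes changed 4-fold and 65.7% of those changed 1.5-fold were recovered among 15848 genes, and 6.15% of calls were false. Only 67 genes were changed 1.5-fold, 67 2-fold and 66 4-fold, in either direction. In the data, 31.6% of genes fell and 23.2% rose there, so these rates do not carry over to the real comparison. The closest pair of replicates still differed by more than sampling noise (chi-square per degree of freedom 1.53), so no library was counted once for another. Precision is limited by 2 or 3 libraries a group and by the depth of the shallowest library. Promoter sequences are from RefSeq (GRCm38.p6). Fdps, Scd2, Sqle, Stard4, Fdft1 and Scd1 had no entry.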

Additional observations from a re-analysis of the deposited data

Results flagged for a closer look

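The members' responses differed between lines. In edgeR's F test across the 8 lines, the IFNb response differed for 30 of 30 members (48.2% of all genes) and the IFNg response for 30 of 30 (69.2%). Without B16.1 the IFNb count was 24 (41.3% of all genes), and without Panc02.3 the IFNg count was 29 (57.6%).

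Tested against the mean of the other 7 lines, the IFNb response departed for 22 members in B16.1, 16 in LLC, 11 in MC38.7, 8 in CT26.2, 5 in KPC.2, 5 in Renca, 5 in YUMMER1.7 and 4 in Panc02.3. These counts are totals over both directions. Of all genes, 8.51% were lower and 9.62% higher in B16.1, 13.6% and 11.3% in LLC, 9.79% and 8.59% in MC38.7 and 2.87% and 1.95% in CT26.2. The shares lower and higher were 0.948% and 1.06% in KPC.2, 5.55% and 5.71% in Renca, 3.77% and 1.51% in YUMMER1.7 and 2.55% and 1.85% in Panc02.3.

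The IFNg response departed for 27 members in Panc02.3 (all lower, 26.6% of all genes), 27 in MC38.7 (all higher, 10.1%), 26 in B16.1, 26 in LLC (all higher, 4.39%), 24 in KPC.2, 21 in Renca (all higher, 7.78%), 18 in CT26.2 (all higher, 5.55%) and 12 in YUMMER1.7. In B16.1 23 were lower and 3 higher (20.7% and 23.9%), in KPC.2 23 higher and 1 lower (13.0% and 10.9%) and in YUMMER1.7 10 higher and 2 lower (6.58% and 7.23%). Panc02.3 is part of the mean for every other line. With Panc02.3 left out, the counts in either direction were 26 in B16.1 (44.7% of all genes), 22 in MC38.7 (10.2%), 18 in KPC.2 (20.6%), 14 in LLC (6.46%), 8 in YUMMER1.7 (11.9%), 6 in CT26.2 (9.17%) and 4 in Renca (12.5%).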

How the results depend on the processing

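No member's call reversed its direction under any alternative, and 364 of 480 values of a member in a line with a cytokine kept their call under every alternative. The counts lower with IFNg in Panc02.3 and B16.1, and lower with IFNb in B16.1, LLC and MC38.7, stayed within 1.5 times under every alternative. Several counts in the other lines did not, and not only small ones. Among them were those lower with IFNg in YUMMER1.7, lower with IFNb in Renca and higher with IFNg in KPC.2. The cause was not tested. The rest are counts of members of 30, with the reported value in parentheses. The number of all genes called also changed with the alternative and is given below for counts within a line. For departures and the mean over lines it is given only where a line was left out, here or above. With each line fitted alone, IFNg raised 1941 and lowered 1623 of 13012 genes in LLC, against 1073 and 743 of 16147 as reported.

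With DESeq2, IFNg against NS gave 2 higher in CT26.2 (1), 4 higher and 2 lower in LLC (2 and 1) and 1 higher in YUMMER1.7 (0). IFNg against IFNb gave 1 higher in CT26.2 (0), 2 lower in KPC.2 (1) and 1 lower in MC38.7 (0). Of all genes, IFNg against NS then gave 973 higher in CT26.2 (803) and 1890 higher in YUMMER1.7 (1580). In LLC it gave 1255 higher and 1110 lower (1073 and 743). Against IFNb it gave 492 higher in CT26.2 (406), 1865 lower in KPC.2 (1483) and 2442 lower in MC38.7 (1697). IFNb departures were 8 in KPC.2 (5) and 7 in Panc02.3 (4). With RLE size factors, IFNg against NS gave 2 higher and 1 lower in CT26.2 (1 and 2), 2 lower in LLC (1) and 1 higher in YUMMER1.7 (0). IFNg against IFNb then gave 1 higher in CT26.2 (0), 2 lower in KPC.2 (1) and 1 lower in MC38.7 (0). Of all genes, IFNg against NS gave 887 higher and 535 lower in CT26.2 (803 and 624). It gave 849 lower in LLC (743) and 1794 higher in YUMMER1.7 (1580). Against IFNb it gave 443 higher in CT26.2 (406), 1710 lower in KPC.2 (1483) and 2233 lower in MC38.7 (1697). The sterol means with IFNg became 0.0978 in MC38.7 (0.127) and −1.94 in Panc02.3 (−1.98).

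Fitted on its own line's libraries, IFNb gave 0 higher in CT26.2 (1), 6 lower in KPC.2 (3), 5 higher in MC38.7 (3), 4 lower and 1 higher in Panc02.3 (8 and 2) and 7 lower in Renca (12). IFNg gave 1 lower and 0 higher in CT26.2 (2 and 1), 4 lower and 11 higher in LLC (1 and 2), 2 lower and 7 higher in MC38.7 (0 and 4), 1 lower and 0 higher in Renca (6 and 1) and 1 higher in YUMMER1.7 (0). IFNg against IFNb gave 0 lower in CT26.2 (2), 3 lower in KPC.2 (1), 3 lower in MC38.7 (0), 1 higher in Renca (4) and 2 higher in YUMMER1.7 (0). Of all genes, IFNg against IFNb gave 18 lower in CT26.2 (243), 1653 lower in KPC.2 (1483) and 2970 lower in MC38.7 (1697). It gave 586 higher in Renca (848) and 1929 higher in YUMMER1.7 (1467). Of all genes, IFNb gave 131 higher in CT26.2 (318), 345 lower in KPC.2 (312) and 3191 higher in MC38.7 (2228). It gave 141 lower and 267 higher in Panc02.3 (456 and 538) and 760 lower in Renca (1101). IFNg gave 119 lower and 445 higher in CT26.2 (624 and 803). It gave 607 lower and 948 higher in MC38.7 (143 and 628). In Renca it gave 452 lower and 695 higher (833 and 975), and in YUMMER1.7 2197 higher (1580). Such fits have fewer samples to estimate the spread.

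Without the filter on low counts, IFNb gave 1 higher in Renca (0), and IFNg 1 lower in CT26.2 (2) and 2 higher in Renca (1). IFNg against IFNb gave 2 higher in B16.1 (4), 1 lower in LLC (2), 1 lower in MC38.7 (0) and 1 higher in Renca (4). Of all 27399 genes then tested, IFNb against NS gave 1292 higher in Renca (1146). IFNg gave 560 lower in CT26.2 (624) and 1055 higher in Renca (975). Against IFNb it gave 3694 higher in B16.1 (4197) and 1645 lower in LLC (2012). It also gave 1781 lower in MC38.7 (1697) and 828 higher in Renca (848). IFNb departures were 3 in KPC.2 (5) and 7 in MC38.7 (11). Leaving out the line B16.1 gave IFNb departures of 1 in KPC.2 (5), 3 in Renca (5) and 3 in YUMMER1.7 (5). Of all genes, 1.81%, 10.8% and 4.76% then departed in these lines, respectively. Leaving out the line Panc02.3 gave IFNg departures of 6 in CT26.2 (18), 14 in LLC (26) and 4 in Renca (21), and 1 member higher in the mean (0).

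Replicate numbers were not used to pair the libraries. Of 68 same-numbered pairs, 10 had a correlation of deviations over 0.1, and no line had all of its pairs over it. This cut cannot exclude weak pairing. The median correlation of same-numbered and other pairs was 0.063 and −0.044 in LLC and 0.068 and −0.047 in Renca. In CT26.2, MC38.7, Panc02.3 and YUMMER1.7 the same-numbered median was the lower one. With the replicate block, IFNg against IFNb gave 2 lower in KPC.2 (1) and 1 lower in LLC (2). Of all genes, 1347 were then lower in KPC.2 (1483) and 1812 in LLC (2012). With this block, IFNb departures in Renca were 2 (5), and no other count moved by over 1.5 times.

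With 1 replicate number, or the shallowest library, left out, the ranges were as follows. With IFNb they were 0 to 1 higher in CT26.2, 0 to 3 lower in KPC.2, 3 to 8 lower and 0 to 2 higher in Panc02.3, 4 to 12 lower and 0 to 1 higher in Renca and 0 to 1 lower in YUMMER1.7. Over all genes they were 170 to 318 higher in CT26.2, 78 to 234 lower in KPC.2 and 33 to 160 lower in YUMMER1.7. They were 141 to 457 lower and 308 to 549 higher in Panc02.3, and 498 to 1105 lower and 627 to 1154 higher in Renca. With IFNg they were 0 to 2 lower and 0 to 1 higher in CT26.2, 6 to 11 higher in KPC.2, 0 to 1 lower and 0 to 2 higher in LLC, 1 to 4 higher in MC38.7, 1 to 6 lower and 0 to 2 higher in Renca, 10 to 20 lower and 0 to 1 higher in YUMMER1.7, and 0 to 1 higher in the mean. Over all genes they were 163 to 628 lower and 504 to 806 higher in CT26.2, and 217 to 747 lower and 561 to 1073 higher in LLC. They were 1683 to 2235 higher in KPC.2 and 410 to 631 higher in MC38.7. In Renca they were 246 to 835 lower and 477 to 1095 higher, and in YUMMER1.7 906 to 1788 lower and 1033 to 1589 higher. For IFNg against IFNb they were 2 to 4 higher in B16.1, 0 to 2 lower and 0 to 1 higher in CT26.2, 0 to 1 lower and 6 to 12 higher in KPC.2, 0 to 3 lower in LLC, 1 to 4 higher in Renca and 5 to 11 lower in YUMMER1.7. Over all genes they were 3297 to 4194 higher in B16.1, 1052 to 2032 lower in LLC and 493 to 855 higher in Renca. They were 82 to 290 lower and 298 to 409 higher in CT26.2. In KPC.2 they were 756 to 1463 lower and 1117 to 1593 higher, and in YUMMER1.7 629 to 1260 lower. IFNb departures were 2 to 9 in CT26.2, 1 to 4 in KPC.2, 9 to 15 in LLC, 2 to 11 in MC38.7, 1 to 4 in Panc02.3, 2 to 5 in Renca and 1 to 5 in YUMMER1.7. IFNg departures were 11 to 17 in CT26.2, 16 to 26 in LLC, 10 to 21 in Renca and 6 to 12 in YUMMER1.7.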
